A study of Homo sapiens with 12 samples.

Results

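Ribosome footprints were followed over the coding sequences of 10 human genes whose proteins build stress granules: G3BP1, G3BP2, CAPRIN1, TIA1, TIAL1, USP10, UBAP2L, ATXN2, PABPC1 and FMR1. The 10 were chosen by name, each through the 1 RefSeq transcript accession that stands for it in the deposited count tables, and all 10 of 10 were found among 19305 accessions. The series asked how loss of eIF2A, a protein that can bring initiator tRNA to the ribosome, changes translation, and it sequenced footprints in 12 libraries. In HEK293T, a line from human embryonic kidney, 4 libraries carried eIF2A siRNA and 4 carried control siRNA. All 8 HEK293T libraries came from cells exposed to sodium arsenite, and within each siRNA group 2 libraries were made from mRNA pulled down with CBP80 and 2 from mRNA pulled down with eIF4E. In H9, a human embryonic stem cell line, 2 libraries carried eIF2A shRNA and 2 carried control shRNA. The H9 labels name no arsenite and no immunoprecipitation (IP). Each kind of library was made in a set 1 and a set 2. The labels do not say whether the sets were separate cultures, so a p-value here reflects how far the libraries spread, and that spread could be technical alone.

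Stress granules are condensates of untranslated mRNA and protein that form in the cytoplasm when initiation stalls, and arsenite is a standard agent for making them appear. G3BP1 and its paralogue G3BP2 bind RNA and form the core of the granule. CAPRIN1 and USP10 compete for the same surface of G3BP, the first favouring condensation and the second opposing it, and UBAP2L and ATXN2 are further proteins of the granule network. TIA1 and TIAL1 are RNA-binding proteins with prion-like tails, FMR1 encodes FMRP, a repressor of translation, and PABPC1 coats poly(A) tails. The cap-binding proteins used for the IP mark different ages of an mRNA: CBP80 rides on newly exported mRNA, and eIF4E takes the cap over for steady-state translation. The footprint data measure how much these 10 mRNAs are translated, and not whether granules formed.

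Values are counts per 1000000 coding reads (CPM), with a gene's accession given as in the files. The depth in coding sequences was 937990 to 1878700 reads for an H9 library and 4331459 to 5775177 reads for a HEK293T library, so H9 values carry wider counting intervals. Footprint counts rise with both the amount of an mRNA and the number of ribosomes on each copy, and with the share of cells that hold it, and these cannot be told apart here. For each siRNA and set, the CBP80-labelled and eIF4E-labelled libraries differed by no more than about sampling noise over all genes (chi-square per degree of freedom 1.01 to 1.03, where 1 is sampling noise), against 3.95 to 5.57 for the same siRNA in different sets and 8.43 to 9.44 for different siRNA in 1 set. They were therefore summed and counted as 1 library for the siRNA comparison, which leaves 2 against 2. Whether the members of such a pair are 1 library sequenced again cannot be told from this agreement. In H9 the eIF2A and control shRNA libraries of a set lay at 1.04 and 1.07, and libraries of different sets at 2.67 to 3.31, so H9 libraries grouped by set rather than by shRNA label. The names of the deposited H9 tables also carry 1 letter for both libraries of set 1 and another letter for both of set 2, and whether shRNA and set are exchanged in the titles was not tested. Groups follow the titles, and every H9 result by shRNA or by set is subject to this doubt. H9 carried the stem cell markers asked for, at 4487.3 to 4785.2 CPM summed over 7 matched genes against 57.3 to 70.9 CPM in HEK293T, although POU5F1, which has near-identical copies elsewhere in the genome, was at 0 in all 12 libraries. A fibroblast list, led by THY1, COL1A2 and COL1A1, summed over its 6 genes to 668.9 to 850.8 CPM in H9 and 17.9 to 22.6 CPM in HEK293T. PDGFRB was also higher in H9, at 11.4 to 25.1 CPM against 0 to 0.704 CPM in HEK293T. The other 2 were not: LUM was at 0 in H9 and at 2.61 to 4.22 CPM in HEK293T, and COL3A1 lay at 0 to 1.6 CPM in H9 and 1.39 to 3.34 CPM in HEK293T.

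EIF2A (NM_032025), the targeted gene, was below the control of its own set, beyond counting error, in 1 of the 4 knockdown libraries. That was set 2 of HEK293T, where eIF2A siRNA gave 46.7 CPM against 83.5 CPM in control, a ratio of 0.559 (95% counting interval 0.5 to 0.626). In set 1 it held 96 CPM against 83.2 CPM in control, a ratio of 1.15 (1.05 to 1.26). In H9 the libraries labelled eIF2A shRNA held 110.2 CPM in set 1 and 68.2 CPM in set 2, against 103.4 and 60.9 CPM in control. EIF2A therefore passed no threshold in either comparison (edgeR adjusted p = 0.643 in HEK293T and 1 in H9), although without set 1 of eIF2A siRNA the log2 fold change in HEK293T was -0.88 (edgeR adjusted p = 0.000243), and every direction below is drawn from libraries labelled eIF2A siRNA or eIF2A shRNA. A footprint count need not follow the protein.

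With the eIF2A siRNA label under arsenite, FMR1 (NM_002024) was the only member that passed the test. It had 77.6 and 87.2 CPM in the CBP80-labelled and eIF4E-labelled libraries of set 1 and 74.6 and 77.6 CPM in those of set 2, against 58.8 and 56 CPM and 56.5 and 54.9 CPM in control siRNA. With each pair counted as 1 library, both libraries with eIF2A siRNA stood above both with control siRNA. How many of all genes order in this way was not counted, for FMR1 or for the members below. With each pair summed and scaled by trimmed mean of M-values (TMM), FMR1 averaged 76.8 ± 0.503 CPM with eIF2A siRNA and 58.4 ± 0.207 CPM with control siRNA (SD, n = 2 each), a log2 fold change of 0.40 ± 0.14 (SE; edgeR quasi-likelihood test, adjusted p = 0.0421). The call is narrow. FMR1 was no longer past the threshold without any 1 of the 4 libraries, at a log2 fold change of 0.39 to 0.40 and adjusted p of 0.0784 to 0.466 in edgeR, nor by DESeq2 (adjusted p = 0.0754). In a fit of all 8 HEK293T libraries, FMR1 passed within the eIF4E label (0.48, edgeR adjusted p = 0.0405). Within the CBP80 label of that fit it did not pass (0.32, adjusted p = 0.12). That fit counts the 2 libraries of a pair as separate samples, so its p-values may be too small. Over all 12331 genes tested, 6.15% were called higher, 6.29% lower and 12.4% in either direction, so 1 of 10 members called higher and 0 called lower is close to the background.

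PABPC1 (NM_002568) had a similar shift that did not pass. It had 477.3 and 487 CPM in the set 1 libraries with eIF2A siRNA and 392.1 and 398.8 CPM in those of set 2, against 355.6 and 341.2 CPM and 301 and 300.8 CPM in control siRNA. With each pair counted as 1 library, both libraries with eIF2A siRNA again lay above both with control siRNA. Within each siRNA, set 1 lay above set 2. Its means were 424.8 ± 38.9 and 334.8 ± 29 CPM (SD, n = 2 each), for eIF2A and control siRNA in that order, with a log2 fold change of 0.34 ± 0.14 (SE; edgeR adjusted p = 0.0875). The call changed with the fit: PABPC1 passed in edgeR with library sizes alone (0.43, adjusted p = 0.0384), with set as a replicate block (0.34, adjusted p = 0.0131) and without set 2 of eIF2A siRNA (0.43, adjusted p = 0.0279). PABPC1 has close paralogues and pseudogenes, and reads with more than 1 alignment stayed out of its count, so its level is uncertain.

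Of the G3BP pair, neither gene passed the test, and their shares of the joint footprints did not overlap between the siRNA labels, with 2 libraries each. G3BP2 (NM_203505) had 509.7 and 519.4 CPM in set 1 and 522.6 and 515.8 CPM in set 2 with eIF2A siRNA, against 436.1 and 430.6 CPM and 393.1 and 405.2 CPM with control siRNA. With each pair counted as 1 library, both libraries with eIF2A siRNA were above both controls. The TMM-scaled means of 502.1 ± 27.3 and 429.1 ± 18.2 CPM (SD, n = 2 each) gave a log2 difference of 0.23 ± 0.14 (SE) that did not pass (edgeR adjusted p = 0.294). G3BP1 (NM_005754) had 1099.7 and 1091.3 CPM in set 1 and 1154.5 and 1132.3 CPM in set 2 with eIF2A siRNA, against 1158.1 and 1186.1 CPM and 1101.2 and 1142.3 CPM with control siRNA. These groups overlapped, and the log2 difference of -0.12 ± 0.15 (SE) did not pass (edgeR adjusted p = 0.641). Of the footprints on both G3BP genes together, the G3BP1 share with eIF2A siRNA was 68.1% in set 1 (95% exact binomial interval 67.3 to 68.8%) and 68.8% in set 2 (68.1 to 69.4%). With control siRNA it was 73% in set 1 (72.4 to 73.6%) and 73.8% in set 2 (73 to 74.5%). The share is of reads, not corrected for coding length. The mean was 68.4 ± 0.507% with eIF2A siRNA and 73.4 ± 0.526% in control (SD, n = 2 each), and the groups did not overlap, with a difference of -4.97 percentage points. A two-sided exact permutation test gave p = 0.333, the smallest that 2 against 2 allows, so it could not call a difference. How many other pairs of genes separate in this way was not counted.

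**Figure D1:**
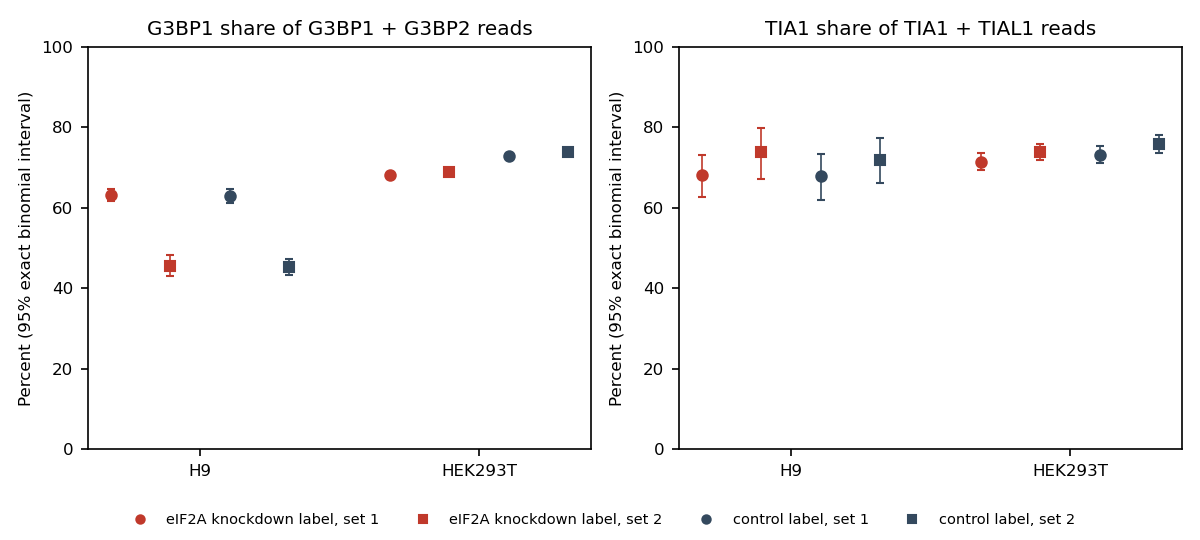
Share of G3BP1 among footprints on G3BP1 and G3BP2 (left) and of TIA1 among footprints on TIA1 and TIAL1 (right), in percent on the vertical axis, for each library with its 95% exact binomial interval; HEK293T runs of a pair are summed, red marks the eIF2A knockdown label, dark blue the control label, circles set 1 and squares set 2. In HEK293T the G3BP1 share is 68.1 and 68.8% with eIF2A siRNA and 73 and 73.8% in control, and in H9 it differs by set, at 45.6 and 45.2% in set 2 and 63.1 and 63% in set 1.

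The remaining 6 members passed no threshold in this comparison. CAPRIN1 (NM_005898), which drives condensation, had 519.9 and 517.1 CPM in set 1 and 485.5 and 495 CPM in set 2 with eIF2A siRNA, against 466 and 459.6 CPM and 439.3 and 448.8 CPM with control siRNA. The groups did not overlap in CPM, yet the TMM-scaled log2 difference was 0.07 ± 0.14 (SE; edgeR adjusted p = 0.799). USP10 (NM_001272075), a deubiquitinase that competes with it, had 200.9 and 186.6 CPM in set 1 and 187 and 188.2 CPM in set 2 with eIF2A siRNA, against 161.5 and 162.2 CPM and 176.2 and 175.5 CPM with control siRNA (log2 difference 0.09, edgeR adjusted p = 0.72). With each pair counted as 1 library, both USP10 values with eIF2A siRNA were also the higher ones. UBAP2L (NM_001330730) had 1316.8 and 1314.8 CPM in set 1 and 1532.4 and 1565.8 CPM in set 2 with eIF2A siRNA, against 1473.4 and 1471.5 CPM and 1453.8 and 1456.1 CPM with control siRNA. For UBAP2L the libraries with eIF2A siRNA lay on both sides of the controls, below them in set 1 and above them in set 2 (log2 difference -0.11 ± 0.15, SE; edgeR adjusted p = 0.669). The RNA-binding pair differed little in the fit: TIA1 (NM_022173) had 122 to 131.6 CPM with eIF2A siRNA and 108.7 to 114.4 CPM with control siRNA, and TIAL1 (NM_001323964) 44.7 to 49.7 CPM and 33.5 to 41.6 CPM in the same order. Neither pair of ranges overlapped, but the log2 differences of 0.10 and 0.23 did not pass (edgeR adjusted p = 0.673 and 0.314). These CPM use library sizes alone, with which the median log2 difference of all genes was itself 0.09. Separation of ranges was not counted over all genes. ATXN2 (NM_002973) lay at 58.5 to 66.1 CPM with eIF2A siRNA and 57.7 to 63.1 CPM with control siRNA, overlapping ranges, with a log2 difference of -0.03 (edgeR adjusted p = 0.926).

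**Figure D2:**
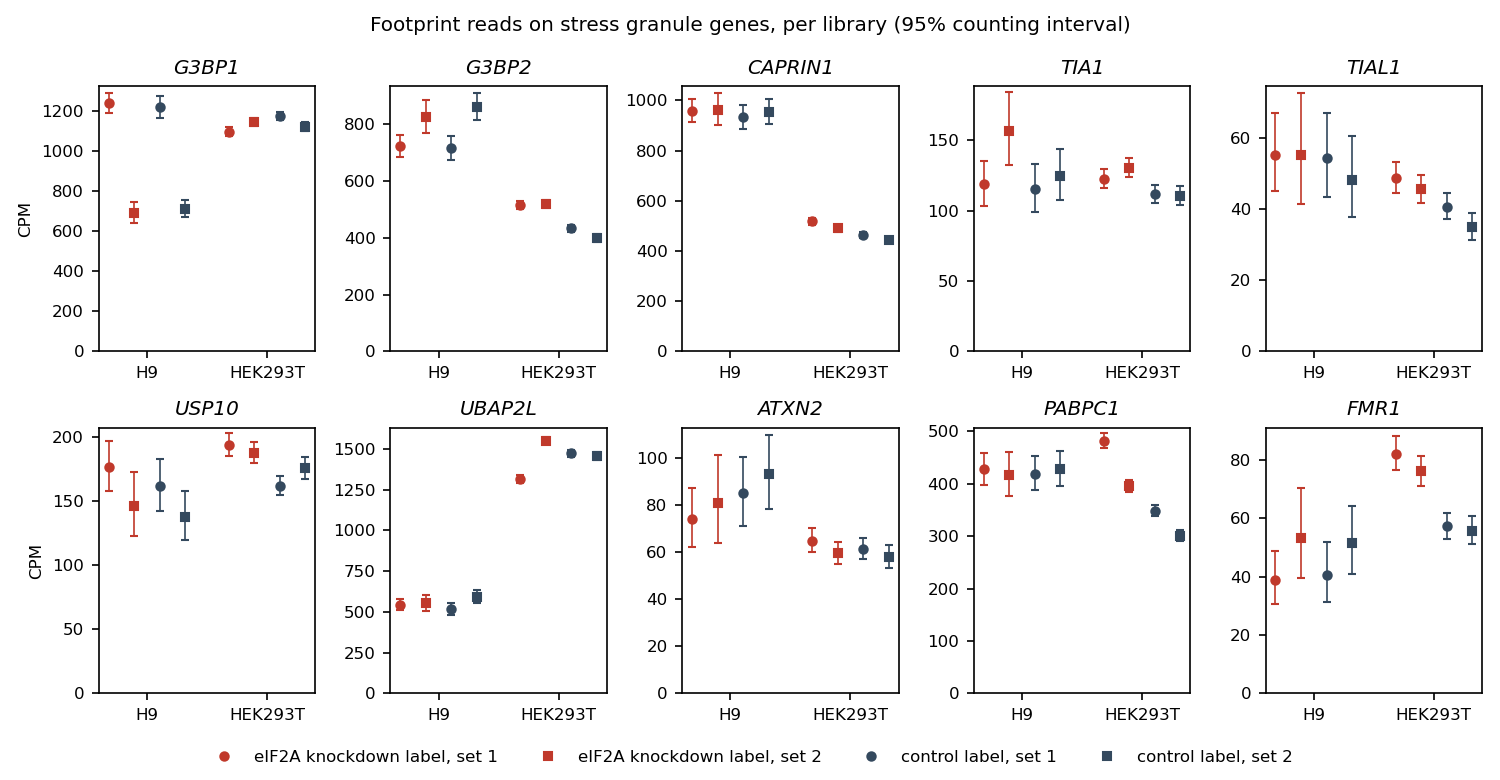
Footprint reads on each of the 10 genes in CPM (vertical axes, from 0, with their own scale for each gene) in H9 and HEK293T libraries, the runs of a HEK293T pair summed; red marks the eIF2A knockdown label, dark blue the control label, circles set 1, squares set 2, and bars the 95% counting interval. FMR1, PABPC1, G3BP2, CAPRIN1, TIA1, TIAL1 and USP10 are above both controls in both HEK293T libraries with eIF2A siRNA. G3BP1 in H9 splits by set at 690.8 and 709.4 CPM in set 2 and 1238.6 and 1218 CPM in set 1.

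The scaling matters for the sign of small differences. The median log2 difference of the 10 members was 0.09 with TMM, beside 0.00 over all genes tested, and 7 of 10 lay above 0. With library sizes alone the members' median was 0.18, beside 0.09 over all genes, and ATXN2 stood at 0.06 in place of -0.03, while G3BP1 (-0.03) and UBAP2L (-0.03) kept their sign. The ratios within a set, which use library sizes alone and counting error only, showed 7 of 10 members higher and 2 lower in set 1, where the counting interval left out 1 for 34.5% of all genes higher and 16.3% lower. In set 2 they showed 7 higher and 0 lower, against 28.5% and 19.6% of all genes. The members held 333 to 17262 reads per library and the background takes in genes with as few as 50 reads in a pair, so these shares are not of equal depth. FMR1 had ratios of 1.43 (95% interval 1.29 to 1.59) in set 1 and 1.36 (1.22 to 1.52) in set 2, and PABPC1 1.38 (1.33 to 1.44) and 1.31 (1.25 to 1.38). G3BP2 stood at 1.19 (1.14 to 1.23) and 1.3 (1.25 to 1.36). The 2 members lower in set 1 were G3BP1, at 0.935 (0.911 to 0.959), and UBAP2L, at 0.894 (0.873 to 0.914). In set 2 these ratios were 1.02 (0.995 to 1.05) for G3BP1 and 1.07 (1.04 to 1.09) for UBAP2L, so neither kept its direction. EIF2A itself was lower in set 2 and not in set 1, and whether its level bears on any of these ratios was not tested. Reads placed once but outside coding sequences were also more frequent with eIF2A siRNA, at 51 and 51.1% of uniquely placed reads in set 1 and 42.2 and 42.4% in set 2, against 39.9 and 40.1% and 35.2 and 35.3% with control siRNA, and their part in these differences was not tested.

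**Figure D3:**
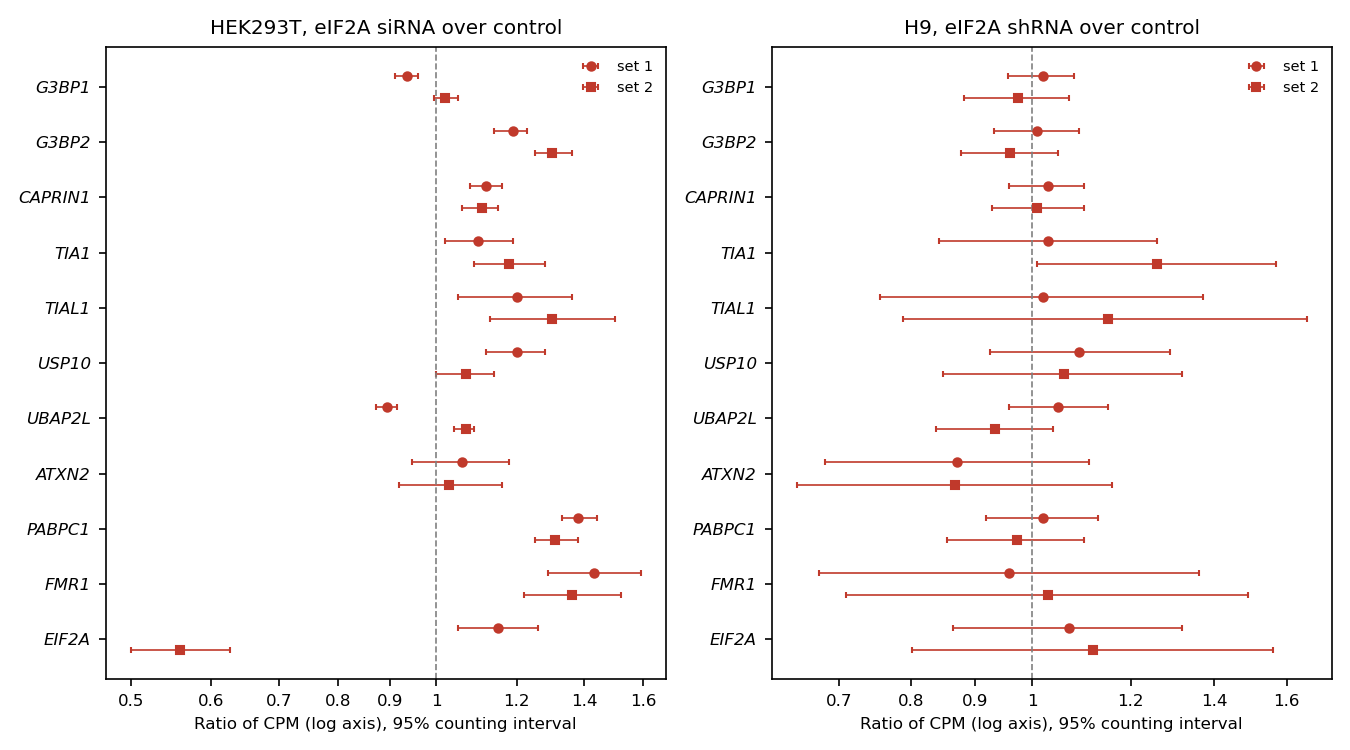
Ratio of CPM, eIF2A knockdown label over control label, for the 10 genes and EIF2A (rows) on a log axis, in HEK293T (left, runs summed) and H9 (right), with 95% counting intervals; circles are set 1 and squares set 2, and the dashed line marks a ratio of 1. In HEK293T the intervals of FMR1, PABPC1, G3BP2, CAPRIN1, TIA1 and TIAL1 lie to the right of 1 in both sets. EIF2A lies at 1.15 in set 1 and 0.559 in set 2 there, while in H9 nearly all intervals include 1.

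The cap-binding protein named in the IP label came with no detected difference in any member. If the libraries of a pair are 1 library sequenced again, which was not tested, this comparison holds no information on the IP, nor do the separate FMR1 values by IP label. Of 11778 genes tested across the 8 HEK293T libraries, edgeR called 0% higher, 0% lower and 0% in either direction between CBP80-labelled and eIF4E-labelled libraries, and 0 of 10 members. 99 genes and 0 members had an unadjusted p under 0.05, and DESeq2 called 1 gene, HSF5, and no member. The log2 differences of the members ran from -0.08 ± 0.10 for TIAL1 to 0.02 ± 0.08 for USP10 (SE), each with an edgeR adjusted p of 1. With each pair of libraries as a replicate block, edgeR called 6 genes, all lower with the CBP80 label and none a member. Among them were TUSC3 (-0.77 on the log2 scale, edgeR adjusted p = 1.63e-11) and HSF5 (-2.79, adjusted p = 7.98e-09). EEF2 was also called, at -0.02 (edgeR adjusted p = 0.000549), so this fit also called a difference close to none. These genes are named after their values were seen. Whether they bear on a pair being 1 library sequenced again was not tested. Taken pair by pair, the 40 ratios of the members ran from 0.89 (95% interval 0.773 to 1.02) for FMR1 to 1.08 for USP10, both in set 1 with eIF2A siRNA, and 0 of 40 intervals left out 1. Over all genes 4.56% and 4.52% of intervals left out 1 with eIF2A siRNA in sets 1 and 2, and 4.41% and 5.06% with control siRNA. No HEK293T library without IP was analysed here, so whether each IP enriched its own mRNA cannot be read from these values. NCBP1, which encodes CBP80, and EIF4E did not pass between the siRNA labels and differed between eIF2A and control siRNA by 0.14 and 0.16 on the log2 scale (edgeR adjusted p = 0.551 and 0.675).

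**Figure D4:**
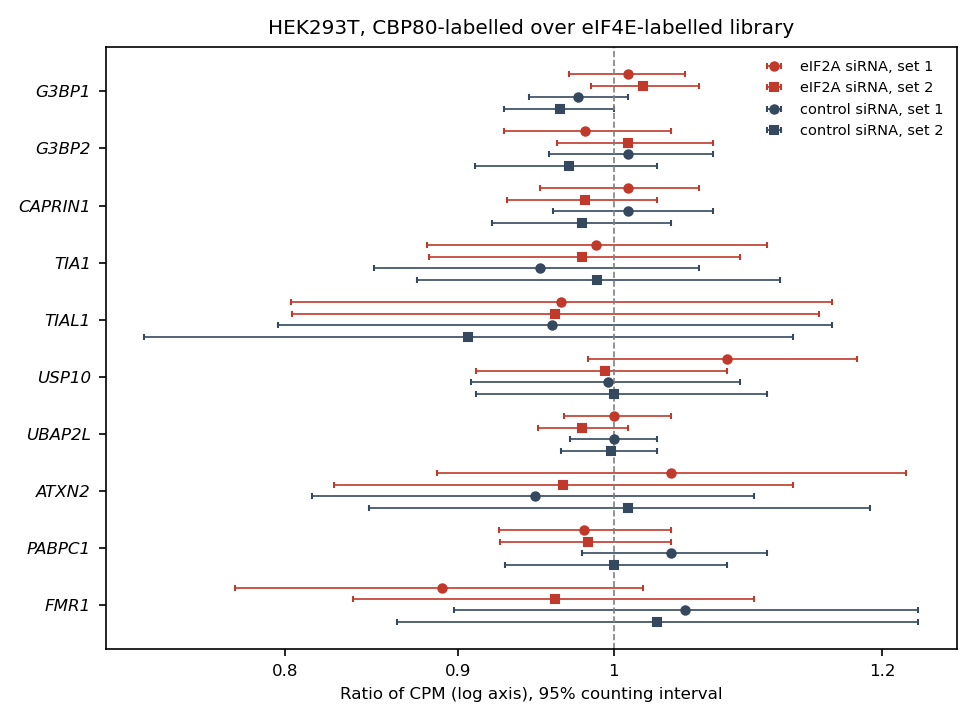
Ratio of CPM, CBP80-labelled over eIF4E-labelled library, for each of the 10 genes (rows) on a log axis, in the 4 pairs of HEK293T libraries, with 95% counting intervals; red marks eIF2A siRNA, dark blue control siRNA, circles set 1 and squares set 2. All 40 intervals include 1, and the ratios lie between 0.89 and 1.08.

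In H9 cells no member passed the test for the eIF2A shRNA label. edgeR called 0 of 9751 genes tested, 0% in each direction, and 0 of 10 members. DESeq2 also called 0, while 84 genes and 0 members had an unadjusted p under 0.05. Set was no block in these fits, so the difference between sets counted as spread, with an SE of 0.28 for G3BP1 in edgeR. They can therefore miss small shRNA differences. No member was called with set as a replicate block either. FMR1 had 38.9 and 53.3 CPM with eIF2A shRNA in sets 1 and 2, against 40.6 and 51.6 CPM with control shRNA, a log2 difference of -0.04 ± 0.25 (SE; edgeR adjusted p = 1). PABPC1 had 427.4 and 416.8 CPM with eIF2A shRNA, against 419.1 and 428.8 CPM with control shRNA (-0.01 ± 0.12). In both genes the shRNA groups overlapped. The log2 differences of the 10 members ran from -0.21 ± 0.18 for ATXN2 to 0.18 ± 0.18 for TIA1 (SE), with a median of 0.00, equal to that of all genes. Within set 1 no member's ratio interval left out 1 (ratios 0.871 to 1.09), beside 2.14% of all genes higher and 2.23% lower. Within set 2 TIA1 alone did, at 156.7 CPM with eIF2A shRNA against 124.4 CPM with control, a ratio of 1.26 (1.01 to 1.57), beside 2.46% of genes higher and 2.57% lower. The change in HEK293T minus the change in H9 was tested directly, also without set as a block, and called 0 of 12911 genes in edgeR. For FMR1 that difference was 0.46 ± 0.27 (SE; adjusted p = 0.656) and for PABPC1 0.36 ± 0.19 (adjusted p = 0.629). The FMR1 call in HEK293T is thus not shown to differ from the value in H9. The H9 labels also name no arsenite and no IP, and give shRNA in place of siRNA.

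Among the 10 members, the largest difference between H9 libraries was that of G3BP1 between the sets. G3BP1 had 690.8 and 709.4 CPM in set 2, with eIF2A and control shRNA in that order, against 1238.6 and 1218 CPM in set 1. The sets did not overlap and the shRNA labels did not separate. The ratio of set 2 to set 1 was 0.558 (95% interval 0.51 to 0.609) with eIF2A shRNA and 0.582 (0.54 to 0.628) with control shRNA. G3BP2 went the other way, with 825.2 and 859.6 CPM in set 2 and 722.8 and 715.2 CPM in set 1, ratios of 1.14 (1.04 to 1.25) and 1.2 (1.11 to 1.3). Of the footprints on both G3BP genes, G3BP1 took 45.6 and 45.2% in set 2, against 63.1 and 63% in set 1. The comparison of sets was added after these values were seen. With the 2 libraries of a set as replicates, edgeR gave a log2 fold change of -0.78 ± 0.04 for G3BP1 (SE; adjusted p = 3.84e-77) and 0.26 ± 0.04 for G3BP2 (adjusted p = 2.94e-07). Both p-values rest on libraries that are close to identical within a set, so they compare these sets of libraries only. UBAP2L also passed (0.14 ± 0.05, edgeR adjusted p = 0.043), but not by DESeq2 (adjusted p = 0.413), nor with library sizes alone, without the count filter, or in edgeR without set 1 of either shRNA label or set 2 of control (adjusted p = 0.073 to 0.61). TIA1 (0.25, edgeR adjusted p = 0.119) passed only without set 2 of control (0.44, adjusted p = 0.0417).

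Among 9751 genes 7.82% were higher in set 2, 7.14% were lower and 15% were called in either direction, against 2 higher and 1 lower of the 10 members. By ratio intervals, 2 members were higher and 1 lower with the eIF2A label (9.47% and 11% of all genes) and likewise with the control label (10.4% and 12%). The members higher by interval were G3BP2 and TIA1 with the eIF2A label, and G3BP2 and UBAP2L with the control label. The other members did not pass between the sets: FMR1 differed by 0.42 ± 0.18 and USP10 by -0.25 ± 0.10 (SE; edgeR adjusted p = 0.102 and 0.0832), while CAPRIN1 (0.04) and PABPC1 (0.03) were nearly level. EIF2A differed by set in the same direction as G3BP1, at 65.7 ± 5.38 CPM in set 2 and 106.9 ± 4.71 CPM in set 1 (SD, n = 2 each; log2 fold change -0.72 ± 0.14, edgeR adjusted p = 6.59e-06). The neuroectoderm and fibroblast marker lists were also higher in set 2. The endoderm list was lower there, at 3.2 and 3.31 CPM against 10.6 and 5.07 CPM in set 1, with eIF2A and control shRNA in that order. The mesoderm list lay at 0 to 1.32 CPM, and both of these lists are near the floor. The 4 neuroectoderm markers summed to 1146.1 and 1151.5 CPM in set 2, with eIF2A and control shRNA in that order, against 523.8 and 558 CPM in set 1. Nearly all of this was NES, at 445 to 1066.1 CPM over the 4 libraries, while PAX6 was at 0. The 6 fibroblast markers summed to 850.8 and 806.7 CPM in set 2, against 672.3 and 668.9 CPM in set 1, with LUM at 0. The stem cell markers were lower in set 2, at 4487.3 and 4576.7 CPM, against 4737.9 and 4785.2 CPM in set 1. What part EIF2A or these markers have in the G3BP1 difference was not tested.

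In HEK293T the members' ratios between sets spanned a narrower range than the 0.558 to 1.37 and 0.582 to 1.27 of H9, for the eIF2A and control labels. By interval, which is narrower at the greater depth of HEK293T, more members differed there. With eIF2A siRNA the ratios of set 2 to set 1 ran from 0.821 for PABPC1 to 1.18 for UBAP2L, with 2 members higher and 2 lower by interval, against 11.7% and 27.9% of all genes. With control siRNA they ran from 0.859 for TIAL1 to 1.09 for USP10, with 1 higher and 5 lower, against 12.6% and 18.8% of all genes. G3BP1 stood at 1.04 (95% interval 1.02 to 1.07) with eIF2A siRNA and 0.955 (0.931 to 0.98) with control siRNA, so the 0.558 and 0.582 of H9 had no counterpart there.

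Between the control libraries of H9 and HEK293T, the members divided. UBAP2L was lower in H9, at 516.1 and 592.3 CPM in its sets 1 and 2, against 1453.8 to 1473.4 CPM in the 4 HEK293T control libraries. TMM-scaled means were 526.1 ± 60.6 CPM in H9 and 1548.7 ± 9.84 CPM in HEK293T (SD, n = 2 each), a log2 fold change of -1.56 ± 0.14 (SE; edgeR adjusted p = 6.72e-28). CAPRIN1 was higher in H9, at 934.6 and 953.6 CPM, against 439.3 to 466 CPM in HEK293T (log2 fold change 0.90 ± 0.14, edgeR adjusted p = 2.41e-10). G3BP2 was likewise higher in H9, at 715.2 and 859.6 CPM, against 393.1 to 436.1 CPM in HEK293T (0.76 ± 0.14, edgeR adjusted p = 1.03e-07). These 3 kept their calls and directions under every alternative run, scaling, DESeq2, the replicate block, each library left out and the knockdown-labelled libraries included. In the libraries labelled as knockdowns the same differences were -1.47 for UBAP2L, 0.85 for CAPRIN1 and 0.50 for G3BP2.

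The call for G3BP1 rested on 1 library. H9 control held 1218 CPM in set 1 and 709.4 CPM in set 2, on both sides of the HEK293T range of 1101.2 to 1186.1 CPM. The log2 fold change was -0.41 ± 0.14 (SE; edgeR adjusted p = 0.00387), and without set 2 of H9 it was -0.06 (adjusted p = 0.733). ATXN2 was also called higher in H9 (0.42, edgeR adjusted p = 0.0226), and FMR1 (-0.46, adjusted p = 0.0259) and USP10 (-0.33, adjusted p = 0.0438) lower, but each lost its call in DESeq2. FMR1 also lost it without H9 set 1 or either HEK293T set, and ATXN2 and USP10 without H9 set 2 or either HEK293T set (edgeR adjusted p = 0.0556 to 0.346). TIA1 (-0.05), TIAL1 (0.28) and PABPC1 (0.23) did not pass. That makes 3 members higher and 4 lower in H9. Of 12307 genes tested, 34.5% were called higher, 37.3% lower and 71.8% in either direction, so 7 of 10 is about the background. The members' median log2 difference was 0.09, beside -0.07 over all genes. With library sizes alone these medians were 0.25 and 0.09, a shift of more than 0.1 on the log2 scale. Cell line, arsenite, IP and preparation cannot be told apart in this comparison.

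**Figure D5:**
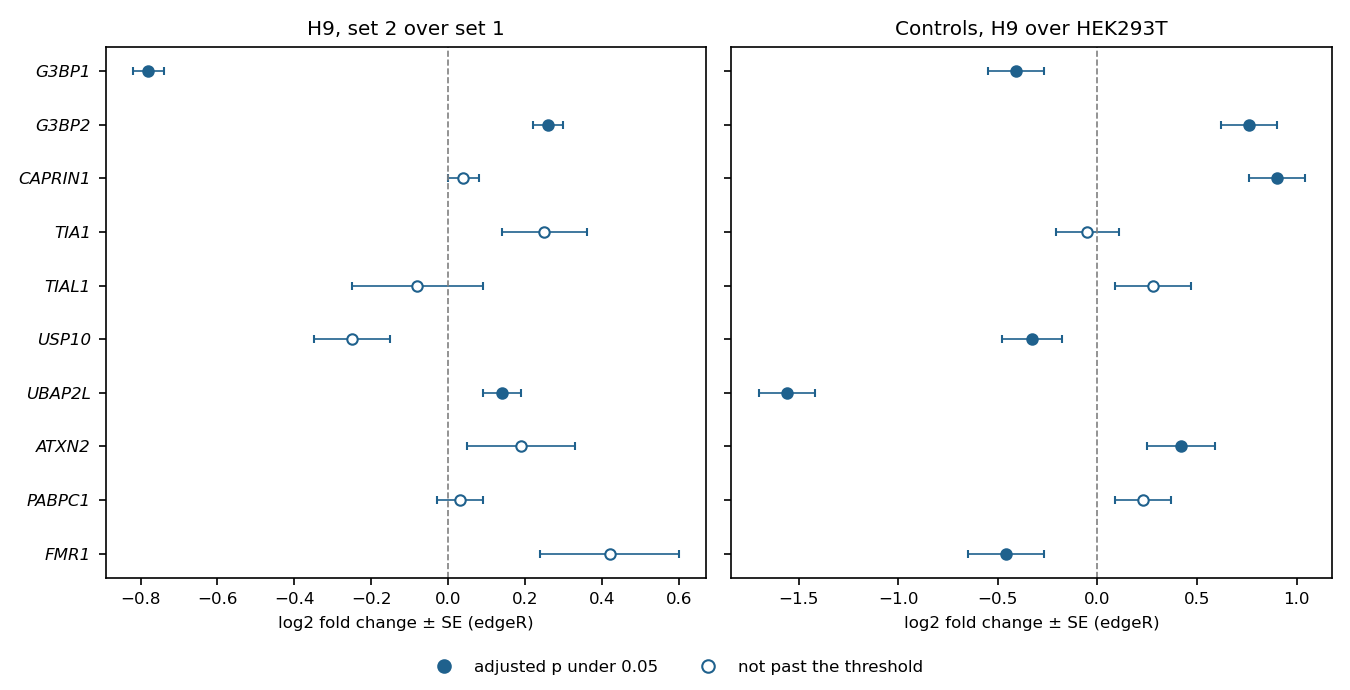
Log2 fold change with its standard error from edgeR for the 10 genes (rows), for H9 set 2 over set 1 (left) and for control libraries of H9 over HEK293T (right, runs of a HEK293T pair summed); filled circles passed an adjusted p of 0.05 and open circles did not. G3BP1 lies at -0.78 on the left, and UBAP2L at -1.56, CAPRIN1 at 0.90 and G3BP2 at 0.76 on the right.

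Summed over the 10 genes, the footprints stayed within a narrow range. With the eIF2A siRNA label the sum was 4439.1 CPM in set 1 and 4597.1 CPM in set 2 of HEK293T, against 4322.2 and 4153.2 CPM with control siRNA. In H9 it was 4355.1 and 3941.4 CPM with eIF2A shRNA, against 4260.2 and 3999 CPM with control shRNA. The TIA1 share of TIA1 and TIAL1 footprints was 71.5 and 74% with eIF2A siRNA, against 73.2 and 75.9% with control siRNA, and 67.9 to 73.9% in H9. Its exact permutation p was 0.667 in both cell lines, and unlike the G3BP1 share its groups overlapped.

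Genes of the same compartments beyond the 10 were described through 3 lists. With the eIF2A siRNA label, 3 of 39 other stress granule components were higher and 3 lower, with a median log2 difference of 0.02. The higher ones included FXR2, a paralogue of FMRP, at 96.3 ± 10.5 CPM with eIF2A siRNA and 66.7 ± 7.46 CPM with control (SD, n = 2 each; log2 fold change 0.53, edgeR adjusted p = 0.00564), and YBX1, an mRNA-packaging protein (0.51, adjusted p = 0.00791). The lower ones included CIRBP, a cold-inducible RNA-binding protein, at 310.9 ± 56.3 CPM with eIF2A siRNA and 467 ± 73 CPM with control (SD, n = 2 each; -0.59, edgeR adjusted p = 0.00305), and the helicase DDX1 (-0.44, adjusted p = 0.0258). Of 16 components of P-bodies, the neighbouring granules of mRNA decay, 3 were higher and 0 lower, with a median of 0.07: TNRC6A, a scaffold of microRNA silencing (0.58, edgeR adjusted p = 0.0027), PATL1 (0.48, adjusted p = 0.0239) and LSM14A (0.42, adjusted p = 0.0282). Of 9 regulators of granule clearance, ULK2 was higher, at 4 CPM against 2.14 CPM in control (0.88, edgeR adjusted p = 0.05, just under the threshold before rounding), and HDAC6 lower (-0.47, adjusted p = 0.0271). Over all genes 6.15% were higher, 6.29% lower and 12.4% called either way, which is the background for these counts, each of 3 genes or fewer in a direction. For the H9 shRNA comparison and for the IP labels no member of any list was called by edgeR, and the values of smallest p were 1.10 for DCP1B in H9 and 0.17 for ULK1, 0.12 for PATL1 and -0.11 for NUFIP2 between IP labels, on the log2 scale.

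Between H9 and HEK293T controls, 15 of the 39 other components were higher in H9 and 16 lower, and 4 and 9 of the 16 P-body components, with medians of -0.20 and -0.59 beside -0.07 over all genes. Of all genes tested 34.5% were higher and 37.3% lower, and 71.8% were called either way, against which the counts of the lists are to be read. FXR1, the second paralogue of FMRP, was higher in H9, at 262.1 ± 9.62 CPM against 85.8 ± 3.73 CPM in HEK293T (SD, n = 2 each; log2 fold change 1.61, edgeR adjusted p = 4.12e-25). The mRNA-binding proteins IGF2BP2 (1.83, edgeR adjusted p = 1.3e-22) and IGF2BP1 (1.23, adjusted p = 3.85e-18) were also higher in H9. Among P-body genes AGO2 (1.45) and LSM14B (1.65) were higher in H9 and TNRC6B (-1.58) and EDC3 (-1.45) lower, each with an edgeR adjusted p of 4.94e-16 or less. Of the 9 clearance genes 4 were higher in H9, USP5 at 0.76, and 3 lower, FAF2 at -1.20, DYRK3 at -2.07 and ZFAND1 at -0.83, by edgeR, with the same background. Between the H9 sets, 9 of 37 other components tested were higher in set 2 and 3 lower, beside 7.82% and 7.14% of all genes, led by PRRC2C (0.59, edgeR adjusted p = 1.12e-27). Among P-body genes TNRC6B (0.90, edgeR adjusted p = 1.03e-08) and DDX6 (0.21, adjusted p = 0.0479) were higher in set 2 and DCP2 (-0.74, adjusted p = 0.000389) was lower, 3 of 16 beside 15% of all genes. Of 8 clearance genes tested, FAF2 was higher (0.44, edgeR adjusted p = 0.0114) and ZFAND1 lower (-0.58, adjusted p = 0.0457).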

How the data were processed

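Ribosome footprints were sequenced in 12 libraries. RNA was extracted with TRIzol and made into libraries with the TruSeq small RNA kit, per the labels' protocols, and cutadapt and STAR 2.5.2b were used with hg19, per the submitters' processing notes. Which program counted the reads, with what strand setting and annotation, is not given in the sources used here, so reads of overlapping antisense genes cannot be told apart. The study's mRNA-seq was not used here. The authors deposited raw counts, 1 whole number per RefSeq coding sequence. Rows that name no gene (87.5 to 89.5% of the counts in HEK293T, 96.2 to 96.5% in H9, mostly reads with several alignments) stayed out of library sizes and tests. Accessions were named through the RefSeq table of GRCh38.p14, used for names only (18888 of 19305 matched).

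Tests ran in edgeR 4.0.16 under R 4.3.3 (filterByExpr, TMM, robust glmQLFit, glmQLFTest) across all genes, with Benjamini-Hochberg adjustment at 0.05. The SE of a log2 fold change was taken as its size divided by the root of the F statistic. Group means use TMM-scaled library sizes, and values of single libraries, ratios and shares use total coding reads, with 95% Poisson or exact binomial intervals that cover counting error only. A count of 0 allows up to 3 counts, 0.519 to 0.693 CPM in HEK293T and 1.6 to 3.2 CPM in H9. CBP80-labelled and eIF4E-labelled libraries of 1 siRNA and set were summed. The IP comparison and the siRNA contrasts within 1 IP label used the 8 libraries unsummed. The labels do not say that set numbers pair the siRNA or shRNA groups, so set was no block in those fits. It was run as an alternative. The deviations of same-numbered samples correlated at 0.29 in HEK293T and 0.37 in H9, with 2 pairs each, which cannot settle the choice. In the IP comparison the 4 pairs share siRNA and set and correlated at 0.35 to 0.49, so the blocked count is given with it. Counts were simulated with 200 genes changed 2-fold (mean count of at least 50). The negative binomial dispersion was 0.01 for every gene, with no other difference between replicates. The edgeR fits recovered 96.5% for the siRNA comparison (12203 genes), 94.5% for the H9 shRNA (9541) and 100% for the IP (11648). They recovered 79% for the cell lines (12062) and 88% for the H9 sets (9539). False calls made up 3.5, 5.97, 4.76, 0 and 4.35% of calls, in that order. These figures do not cover changes smaller than 2-fold or replicates that differ by set.

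The text names the 10 genes, EIF2A, NCBP1 and EIF4E, and from each wider list up to 4 genes past the threshold by smallest p. A gene that this rule takes is not reported here. The members and lists were chosen with earlier results of these data known. Alternatives were RLE scaling, library sizes alone, no count filter, DESeq2 1.42.0, the replicate block and leaving out each library. The siRNA contrast was also taken within the CBP80 label and within the eIF4E label, in the fit of all 8 HEK293T libraries. For the cell lines, the knockdown-labelled libraries were a further alternative. The H9 set comparison was added after the data were seen.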

Additional observations from a re-analysis of the deposited data

How the results depend on the processing

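For eIF2A against control siRNA, edgeR's 1534 calls became 682 with DESeq2, 2993 with set as a replicate block, 473 in the CBP80-labelled and 383 in the eIF4E-labelled libraries alone, and 75 (without control set 2) to 2086 (without eIF2A set 2) with 1 library left out, with 287 without eIF2A set 1 and 983 without control set 1. With library sizes alone 740 were higher and 292 lower, beside 758 and 776 with TMM. Members called there, 1 in the fit described, numbered 2 with library sizes alone and with the replicate block, 0 without the count filter, with DESeq2 and in the CBP80-labelled libraries, and 0 to 1 with 1 library left out, where a lone library was assumed to vary like the other groups. For the IP labels, 0 calls became 3 without the filter, 1 with DESeq2, 6 with the replicate block and 0 to 2 with 1 library left out. Between cell lines, 7 members called became 3 with DESeq2, 4 in the knockdown-labelled libraries and 4 to 6 with 1 library left out, and library sizes alone gave 4747 genes higher and 4079 lower in H9, beside 4251 and 4591. Between H9 sets, 1459 calls became 332 with DESeq2 and 702 to 1031 with 1 library left out. The replicate block changed no other call by more than 1.5 times, and the cause of these changes was not tested. Among the members in H9, FMR1 had the fewest reads, 50 in 1 library, which limits its precision there.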
